A study of Mus musculus with 35 samples.

Results

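Mertk, Axl, Gas6, Pros1, Mfge8, Elmo1, Tgm2 and Selenop were followed through RNA sequencing of mouse bone-marrow-derived macrophages (BMDMs), as the 8 rows of the 47069 in the expression tables whose Ensembl identifiers carry these symbols. All 8 were found once and all 8 passed the filter on low values (a mean of at least 1 FPKM, the fragments mapped to a gene scaled by its length and by the depth of the library). BMDMs are grown by culturing marrow of the femur and tibiae for 5 to 7 days in medium conditioned by L929 cells, which supplies the macrophage growth factor, so they stand for macrophages in a dish and not for a resident tissue population. The marrow came from C57BL/6 mice that were wild-type or labelled AMPKa1-/-, a deletion of the AMPKα1 catalytic subunit encoded by Prkaa1, and the study's methods state mixed-sex cohorts 8 to 15 weeks old but do not describe the AMPKa1-/- line. For 24 h the cultures received vehicle (DMSO), dexamethasone (Dex, 100 nM), lipopolysaccharide (LPS, 100 ng/ml), DAMPs (1 µg/ml, not further described in the labels), LPS + Dex, or DAMPs + Dex. Each of the 12 groups held 3 libraries, except wild-type LPS with 2 (replicates 2 and 3, while a replicate 1 was not analysed here), giving 17 wild-type and 18 AMPKa1-/- libraries. The methods state that cultures came from individual mice unless noted otherwise, but the labels do not tie a library to a mouse, so the p-values measure the spread between these libraries.

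Macrophages clear dying cells by efferocytosis. Phosphatidylserine exposed on an apoptotic cell is bound by soluble bridging proteins, which are in turn bound by receptors on the phagocyte. The TAM receptor tyrosine kinases Mertk and Axl use the bridging ligands Gas6 and protein S (Pros1), whereas Mfge8 links phosphatidylserine to αv integrins. Elmo1 acts with Dock proteins to activate the small GTPase Rac during engulfment, and Tgm2 is a transglutaminase that assists integrin-dependent uptake. Selenop encodes selenoprotein P, a secreted selenium carrier. TAM signalling is also known to restrain inflammatory signalling in macrophages, and glucocorticoids are known to enhance clearance of apoptotic cells.

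The treatment labels were checked first. Mean Tsc22d3, which encodes the glucocorticoid-induced protein GILZ, was 53.5 ± 1.60 FPKM (SD, n = 3) in wild-type vehicle libraries and 709 ± 36.9 with Dex, and mean Fkbp5, a co-chaperone of the glucocorticoid receptor, was 1.91 ± 0.315 and 340.7 ± 17.6. Mean Tnf was 10.5 ± 2.45 FPKM with vehicle and 393 ± 87.9 with LPS (n = 2), and Il1b was 4.96 ± 1.04 and 15292 ± 1924. Both agents had therefore left their usual marks on the libraries that carry their names. The genotype label had no such mark: Prkaa1 stood at 14.3 ± 2.19 FPKM in wild-type vehicle libraries and at 15.6 ± 0.861 in those labelled AMPKa1-/- (log2 fold change 0.12, adjusted p = 1), and was not lower by the test in any of the 6 treatments. Which exons the line lacks is not given in the sources used here, so a transcript without them may still be counted, and every genotype statement below is about libraries labelled AMPKa1-/-. The macrophage label stood up to its markers, since all 6 of Adgre1, Csf1r, Cd68, Itgam, Lyz2 and Fcgr1 were above a mean of 1 FPKM, with Lyz2 the most abundant at 24097 FPKM and their sum between 12928 and 39109.8 FPKM in the 35 libraries, and in each genotype lower with LPS than with LPS + Dex.

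Differences between groups were tested with limma on log2(FPKM + 1) over the 11354 genes that passed the filter, with Benjamini-Hochberg adjustment over all of them, and a gene is called where the adjusted p is under 0.05. Fold changes are on this log2(FPKM + 1) scale, which understates changes of low genes, while a ratio written as fold compares mean FPKM of the groups. In bulk RNA, fewer cells expressing a gene and less RNA per cell cannot be told apart.

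LPS moved all 8 genes, with Mertk the least firm, and 7 to 8 were called in each genotype on leaving out 1 library. The 8 of 8 genes called in both genotypes stood against a background of 55.7% of all tested genes in wild-type and 64.3% in AMPKa1-/- cells, so a call by itself is common in this comparison and the size and direction carry more. Axl and Tgm2 rose, and the other 6 fell, in both genotypes. The median log2 fold change of the 8 was -1.47 in wild-type and -1.52 in AMPKa1-/- cells, beside -0.19 and -0.30 for all genes tested. Gas6 and Selenop fell the furthest of the 8, by 6.19 and 5.15 on the log2 scale in wild-type cells.

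Dex moved the receptors in opposite directions. Without a stimulus, 6 of the 8 genes were called in wild-type cells (2 higher, 4 lower; background 30.9%) and 7 of 8 in AMPKa1-/- cells (2 higher, 5 lower; background 27.9%). Mertk and Selenop were higher, Axl, Gas6, Pros1 and Tgm2 were lower in both genotypes, and Elmo1 was called lower in AMPKa1-/- cells. The median log2 fold change of the 8 genes was -0.44 and -0.63, beside 0.05 and -0.05 for all genes.

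**Figure D1:**
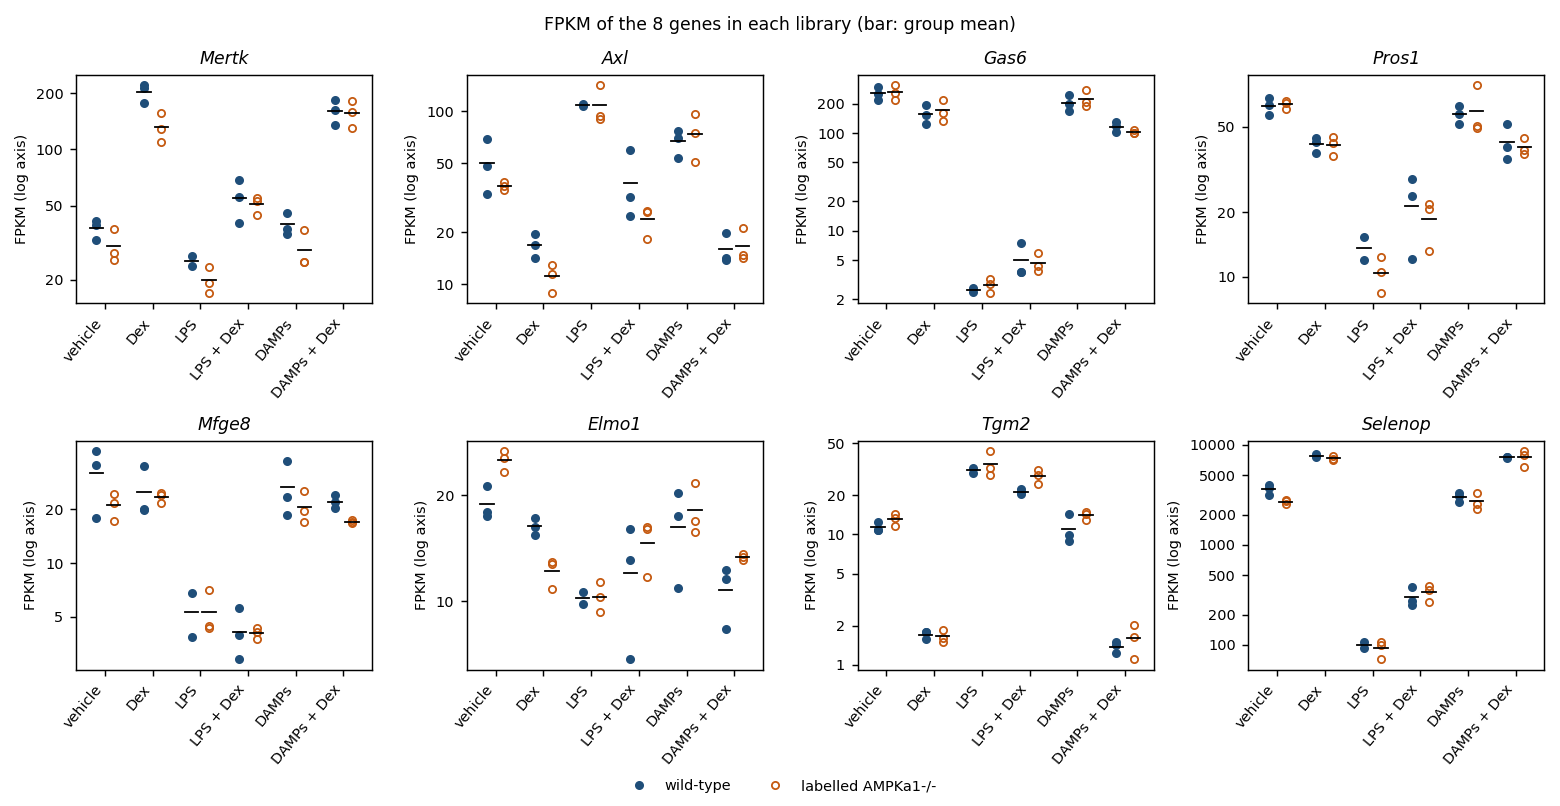
Expression of each gene in FPKM (log axis) in each of the 35 libraries, by treatment, with filled circles for wild-type, open circles for AMPKa1-/- libraries and a bar at each group mean. Mertk and Selenop are highest in the groups given Dex without LPS, Axl in the groups given LPS alone, Tgm2 in the groups given LPS or LPS + Dex, and the 4 LPS-containing groups sit below all others for Gas6, Pros1 and Mfge8.

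The receptors are described first. Mertk lies on GRCm38 at chr2:128698956-128802894 on the plus strand (ENSMUSG00000014361) and Axl at chr7:25757273-25788705 on the minus strand (ENSMUSG00000002602). Because the receptors moved against each other, their promoter windows are shown, each running from 250 bases before to 50 bases after a transcription start in RefSeq annotation of GRCm38.p6. Capitals mark the GC box letters GGGGCGGGG, read on either strand, which are found in 11.4% of the 32851 windows of all genes.
Mertk, chr2:128698665-128698964, plus strand: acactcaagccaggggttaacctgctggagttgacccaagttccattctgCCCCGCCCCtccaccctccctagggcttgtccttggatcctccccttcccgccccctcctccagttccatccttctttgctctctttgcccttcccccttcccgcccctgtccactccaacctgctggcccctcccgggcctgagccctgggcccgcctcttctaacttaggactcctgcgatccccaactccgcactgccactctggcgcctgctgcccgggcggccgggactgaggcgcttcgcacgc
Axl, chr7:25788684-25788983, minus strand: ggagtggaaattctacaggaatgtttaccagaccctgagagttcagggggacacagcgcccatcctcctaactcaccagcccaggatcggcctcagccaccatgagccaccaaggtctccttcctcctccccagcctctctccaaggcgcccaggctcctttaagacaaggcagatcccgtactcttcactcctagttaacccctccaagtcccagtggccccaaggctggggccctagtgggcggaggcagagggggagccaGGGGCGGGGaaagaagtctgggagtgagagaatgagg

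In wild-type cells, Mertk was at 41.4, 32.8 and 39.2 FPKM with vehicle and at 212, 221 and 178 FPKM with Dex. All 3 Dex libraries lay far above all 3 vehicle libraries, a 5.40-fold higher mean (log2 fold change 2.40 ± 0.19 (SE), adjusted p = 1.35e-10). AMPKa1-/- libraries had Mertk at 25.4, 27.8 and 37.5 FPKM with vehicle and at 128, 109 and 157 FPKM with Dex. Here too the groups did not overlap (4.34-fold higher, log2 fold change 2.09 ± 0.19, adjusted p = 2.02e-09).

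LPS lowered Mertk modestly. In wild-type cells it was at 23.7 and 26.8 FPKM, below all 3 vehicle libraries (log2 fold change -0.56 ± 0.21, adjusted p = 0.0268), and in AMPKa1-/- cells at 17.0, 23.5 and 19.3 FPKM (log2 fold change -0.57 ± 0.19, adjusted p = 0.0105). These calls were among the least firm: the first was lost on leaving out wild-type vehicle replicate 1 (-0.49) or 3 (-0.53) or LPS replicate 2 (-0.48) or 3 (-0.64), and the second without AMPKa1-/- vehicle replicate 3 (-0.41) or LPS replicate 1 (-0.47) and after centring every library on one median (-0.29) or quantile normalization (-0.37). The first was lost with no filter too (adjusted p = 0.0537). Adding Dex to LPS brought wild-type Mertk to 68.3, 55.8 and 40.1 FPKM, 2.17-fold above LPS alone (log2 fold change 1.06 ± 0.21, adjusted p = 0.000246), and AMPKa1-/- Mertk to 44.2, 55.1 and 52.6 FPKM, 2.54-fold above (1.31 ± 0.19, adjusted p = 2.28e-06). The Dex-treated libraries again lay wholly above the LPS libraries, but far under the level reached with Dex alone.

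With DAMPs, wild-type Mertk was at 45.9, 37.6 and 35.3 FPKM and did not pass the test against vehicle (log2 fold change 0.06, adjusted p = 1). DAMPs + Dex gave 163, 135 and 184 FPKM, 4.06-fold above DAMPs (log2 fold change 1.99 ± 0.19, adjusted p = 4.51e-09). The AMPKa1-/- libraries showed the same separation, with 24.8, 24.9 and 36.8 FPKM under DAMPs and 181, 130.2 and 159 FPKM under DAMPs + Dex (5.43-fold, log2 fold change 2.41 ± 0.19, adjusted p = 1.15e-10). Ordered by mean, the 4 groups given Dex without LPS led and each overlapped its neighbour in the order, then a gap set them apart from wild-type LPS + Dex at 54.7 ± 14.1 FPKM, and the lowest group was AMPKa1-/- LPS at 19.9 ± 3.32 FPKM. The mean of the highest group was 10.2 times that of the lowest.

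Axl ran against Mertk under Dex and under LPS. Wild-type Axl was at 68.9, 47.9 and 33.3 FPKM with vehicle and at 19.4, 16.8 and 14.1 FPKM with Dex, with no overlap (2.98-fold lower, log2 fold change -1.47 ± 0.27, adjusted p = 0.000139). For AMPKa1-/- cells, 39.2, 36.9 and 35.2 FPKM with vehicle stood against 12.9, 8.91 and 11.5 FPKM with Dex (3.34-fold lower, log2 fold change -1.67 ± 0.27, adjusted p = 2.86e-05). The spread among the wild-type vehicle libraries, about 2-fold from lowest to highest, was the widest of the groups without LPS and did not reach down to the Dex libraries.

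With LPS, wild-type Axl was at 110.1 and 108 FPKM, above every vehicle library (2.17-fold, log2 fold change 1.16 ± 0.30, adjusted p = 0.00182), and AMPKa1-/- Axl at 94.0, 90.4 and 141 FPKM (2.93-fold, 1.5 ± 0.27, adjusted p = 2.56e-05). Dex added to LPS took it to 59.3, 24.7 and 31.9 FPKM in wild-type cells (2.82-fold lower than LPS, log2 fold change -1.57 ± 0.30, adjusted p = 0.000159) and to 18.2, 26.2 and 26.6 FPKM in AMPKa1-/- cells (4.58-fold lower, -2.14 ± 0.27, adjusted p = 2.56e-07). In both genotypes the LPS + Dex libraries lay wholly below the LPS libraries. Against vehicle, LPS + Dex was not called in wild-type cells (log2 fold change -0.40 ± 0.27, adjusted p = 0.217) and was called lower in AMPKa1-/- cells (-0.64 ± 0.27, adjusted p = 0.0444), a call lost after centring (-0.36) and without AMPKa1-/- vehicle replicate 1, 2 or 3 or LPS + Dex replicate 1 (-0.68 to -0.47). Without wild-type LPS + Dex replicate 1, the library at 59.3 FPKM, the wild-type difference was called as well (-0.75).

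Axl was the only one of the 8 genes called for DAMPs against vehicle, and this in AMPKa1-/- cells, where it was at 50.7, 74.6 and 96.5 FPKM, above all 3 vehicle libraries (1.99-fold, log2 fold change 0.93 ± 0.27, adjusted p = 0.0485). The background was small there, at 4.13% of genes (2.35% without vehicle replicate 2, 2.37% without DAMPs replicate 3, 2.4% without vehicle replicate 3 and 2.74% without DAMPs replicate 1), and the call was lost under 4 alternative settings and on leaving out AMPKa1-/- vehicle replicate 1, 2 or 3 or DAMPs replicate 2 or 3 (log2 fold changes of 0.72 to 0.97). The osteoclast and endothelial marker sums were higher in these DAMPs libraries as well, and their part was not tested. In wild-type cells 0 of 8 were called by limma (background 2.01%, 1099 genes at an unadjusted p under 0.05), with Axl at 70.2, 53.7 and 76.9 FPKM (log2 fold change 0.46, adjusted p = 0.734). Dex on top of DAMPs lowered Axl to 19.8, 13.9 and 14.3 FPKM in wild-type cells (4.18-fold, log2 fold change -2.0 ± 0.27, adjusted p = 1.83e-06) and to 21.1, 14.2 and 14.7 FPKM in AMPKa1-/- cells (4.44-fold, -2.06 ± 0.27, adjusted p = 1.16e-06).

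FPKM is per kilobase, so the receptors may be set beside each other, but only roughly, since transcript forms were not told apart. Changes of their ratio between treatments carry more than its level. The Mertk to Axl ratio, taken within each library and averaged over the group, was 0.820 in wild-type vehicle libraries (0.601 to 1.18), 12.2 with Dex (10.9 to 13.2), 0.232 with LPS, 1.56 with LPS + Dex, 0.604 with DAMPs and 10.3 with DAMPs + Dex. In FPKM, Axl thus exceeded Mertk in every LPS and every DAMPs library of wild-type cells, and Mertk exceeded Axl by about 10-fold in the libraries given Dex without LPS. In AMPKa1-/- cells the ratios were 0.822, 11.9, 0.192, 2.17, 0.401 and 9.53 in the same order. The third TAM receptor, Tyro3, had a mean of 0.113 FPKM over all libraries and was not tested.

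**Figure D2:**
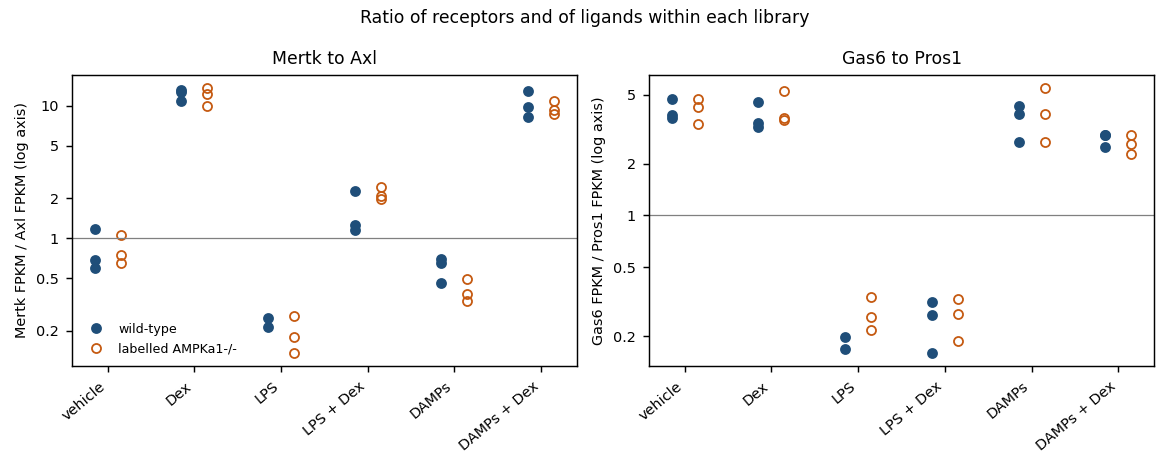
Ratio of Mertk to Axl (left) and of Gas6 to Pros1 (right) FPKM within each library (log axes), by treatment, with filled circles for wild-type, open circles for AMPKa1-/- libraries and a grey line at equal levels. Mertk exceeds Axl in every library given Dex, and Gas6 exceeds Pros1 in every library without LPS and is below it in every library with LPS.

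The ligands fell together with LPS. Gas6 lies at chr8:13465374-13494490 on the minus strand (ENSMUSG00000031451) and Pros1 at chr16:62854307-62929346 on the plus strand (ENSMUSG00000022912). The Gas6 window is shown because this gene had one of the largest falls under LPS, again with the GC box letters in capitals, which the Pros1 window also holds.
Gas6, chr8:13494486-13494785, minus strand: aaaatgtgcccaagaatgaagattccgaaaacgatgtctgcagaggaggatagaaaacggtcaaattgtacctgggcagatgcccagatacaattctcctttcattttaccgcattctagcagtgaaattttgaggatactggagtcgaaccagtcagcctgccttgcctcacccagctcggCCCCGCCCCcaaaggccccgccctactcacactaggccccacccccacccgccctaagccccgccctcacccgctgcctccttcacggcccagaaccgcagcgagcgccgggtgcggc

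Gas6 was at 216, 298 and 251 FPKM in wild-type vehicle libraries and at 2.58 and 2.36 FPKM with LPS. The fall was 103-fold in mean FPKM (log2 fold change -6.19 ± 0.24, adjusted p = 3.77e-18). AMPKa1-/- libraries had 311, 217 and 257 FPKM with vehicle and 3.21, 2.30 and 2.85 FPKM with LPS, 93.9-fold lower (log2 fold change -6.11 ± 0.21, adjusted p = 2.71e-19). Of the 8 genes, Gas6 had the widest range between group means, with the highest 106 times the lowest.

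Dex lowered Gas6 on its own and raised it on top of LPS. Alone it gave 123, 153 and 192 FPKM in wild-type cells, all below the vehicle libraries (1.64-fold lower, log2 fold change -0.72 ± 0.21, adjusted p = 0.0119), and 219, 133 and 159.8 FPKM in AMPKa1-/- cells (1.53-fold lower, -0.63 ± 0.21, adjusted p = 0.0276), where the highest Dex library overlapped the lowest vehicle library. The first call was lost without vehicle replicate 2 (-0.60) or Dex replicate 1 (-0.56), and the second without vehicle replicate 1 (-0.50) or 3 (-0.63) or Dex replicate 2 (-0.47) or 3 (-0.60) and after centring (-0.54) or with no filter (adjusted p = 0.0624). With LPS it gave 3.78, 7.56 and 3.80 FPKM in wild-type cells, 2.04-fold above LPS alone (log2 fold change 0.75 ± 0.24, adjusted p = 0.0161), and 5.88, 3.86 and 4.34 FPKM in AMPKa1-/- cells, 1.68-fold above (0.58 ± 0.21, adjusted p = 0.0331). The gain with LPS was small against what LPS had removed, since Gas6 under LPS + Dex was still 50.5-fold below vehicle in wild-type and 55.8-fold below in AMPKa1-/- cells. The wild-type call for LPS + Dex against LPS was lost on leaving out LPS replicate 2 (0.79) or 3 (0.70) or LPS + Dex replicate 2 (0.47), the library at 7.56 FPKM, and the AMPKa1-/- call without LPS replicate 2 (0.48) or 3 (0.59) or LPS + Dex replicate 1 (0.44). With only the groups compared the wild-type call was lost (adjusted p = 0.15). The AMPKa1-/- call was lost with no filter (adjusted p = 0.0729) and after quantile normalization (adjusted p = 0.0549).

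With DAMPs, Gas6 was at 167, 247 and 199 FPKM in wild-type cells and did not pass the test against vehicle (log2 fold change -0.32, adjusted p = 0.811). DAMPs + Dex gave 103, 118 and 128 FPKM, below all 3 DAMPs libraries (log2 fold change -0.79 ± 0.21, adjusted p = 0.00619), and in AMPKa1-/- cells 99.8, 101 and 108 FPKM stood below 277, 191 and 207 FPKM (-1.10 ± 0.21, adjusted p = 0.000242). The wild-type call was lost without DAMPs replicate 2 (-0.65).

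Pros1 followed Gas6 over a narrower range. It was at 56.6, 63.2 and 68.1 FPKM in wild-type vehicle libraries and at 15.4 and 11.9 FPKM with LPS, 4.59-fold lower (log2 fold change -2.12 ± 0.25, adjusted p = 2.47e-08). In AMPKa1-/- cells, 65.9, 64.2 and 60.4 FPKM stood against 12.4, 10.6 and 8.40 FPKM (6.07-fold lower, -2.51 ± 0.22, adjusted p = 9.34e-11). LPS + Dex gave 23.7, 28.6 and 12.1 FPKM in wild-type cells, where replicate 3 lay among the LPS libraries and the difference from LPS did not pass (log2 fold change 0.55 ± 0.25, adjusted p = 0.0878), and 21.7, 20.7 and 13.2 FPKM in AMPKa1-/- cells, all above LPS (0.75 ± 0.22, adjusted p = 0.00709). Without wild-type LPS + Dex replicate 3 the wild-type difference was called as well (0.89), as it was after centring (0.62) or quantile normalization (0.63), and without AMPKa1-/- LPS replicate 3 the AMPKa1-/- call was lost (0.62).

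Alone, Dex brought Pros1 to 37.8, 44.5 and 42.4 FPKM in wild-type cells and to 41.8, 36.5 and 44.5 FPKM in AMPKa1-/- cells, in both cases below every vehicle library (1.51-fold lower, adjusted p = 0.045, and 1.55-fold lower, adjusted p = 0.0332). Although the groups did not overlap, these calls were close to the threshold, and the wild-type one was lost on leaving out any of its 6 libraries (log2 fold changes of -0.65 to -0.51) and the AMPKa1-/- one on leaving out any but Dex replicate 3 (-0.66 to -0.55). Both were lost with no filter, and the wild-type one with a pseudocount of 0.1 and with 1 genotype in the fit. With DAMPs the libraries ran from 49.4 to 78.1 FPKM over both genotypes, and with DAMPs + Dex from 35.4 to 51.5 FPKM, and neither genotype was called for the addition of Dex, although the AMPKa1-/- difference was after centring (-0.58, adjusted p = 0.0187) or quantile normalization (-0.57, adjusted p = 0.025).

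The balance of the ligands differed between libraries with and without LPS. The mean Gas6 to Pros1 ratio was 4.07 in wild-type vehicle libraries, 3.74 with Dex, 3.62 with DAMPs and 2.78 with DAMPs + Dex, but 0.183 with LPS and 0.246 with LPS + Dex. In AMPKa1-/- cells it was 4.12, 4.16, 4.0 and 2.58 without LPS, and 0.272 and 0.262 with LPS and LPS + Dex. Pros1 therefore had the higher FPKM of these ligands in every library that had received LPS.

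Mfge8 (chr7:79133768-79149060, minus strand, ENSMUSG00000030605) was called in the comparisons of LPS and LPS + Dex with vehicle and in no other. In wild-type cells it was at 42.2, 17.8 and 35.5 FPKM with vehicle and at 3.87 and 6.84 FPKM with LPS, 5.94-fold lower (log2 fold change -2.32 ± 0.30, adjusted p = 1.77e-07). In AMPKa1-/- cells, 24.2, 17.2 and 21.8 FPKM stood against 7.10, 4.32 and 4.48 FPKM (3.97-fold lower, -1.82 ± 0.27, adjusted p = 1.15e-06). LPS + Dex left it at 3.94, 2.90 and 5.59 FPKM and at 4.34, 4.11 and 3.77 FPKM, and the difference from LPS was not called in either genotype (log2 fold change -0.30 and -0.29, adjusted p = 0.488 and 0.442). Without LPS, all libraries lay between 16.7 and 42.2 FPKM. Leaving out wild-type vehicle replicate 2, the library at 17.8 FPKM, added a call for DAMPs + Dex against vehicle (log2 fold change -0.79). The wild-type vehicle libraries differed more than 2-fold among themselves, and a list of 6 fibroblast and stromal markers, of which 4 had a mean of at least 1 FPKM and Col1a2 was the most abundant at 2.62 FPKM, summed to 18.6, 1.52 and 10.1 FPKM in the same libraries. In AMPKa1-/- vehicle libraries this sum was 1.71, 3.16 and 1.71 FPKM, and the part of stromal cells in the Mfge8 values was not tested.

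Elmo1 (chr13:20090596-20608353, plus strand, ENSMUSG00000041112), which works inside the cell on the uptake machinery, had the narrowest range of the 8 genes, with the highest group mean 2.46 times the lowest. It was at 17.5, 21.3 and 18.0 FPKM in wild-type vehicle libraries and at 9.81 and 10.7 FPKM with LPS (1.85-fold lower, log2 fold change -0.82 ± 0.23, adjusted p = 0.00348). In AMPKa1-/- cells, 23.3, 25.5 and 26.7 FPKM stood against 11.4, 10.3 and 9.32 FPKM (2.44-fold lower, -1.21 ± 0.21, adjusted p = 1.05e-05). With Dex alone, wild-type cells held 15.5, 17.3 and 16.2 FPKM and were not called (log2 fold change -0.20, adjusted p = 0.485), whereas AMPKa1-/- cells held 12.7, 10.8 and 12.9 FPKM, below all their vehicle libraries (2.07-fold, -0.99 ± 0.21, adjusted p = 0.000524). The difference between the genotypes in this Dex response did not pass its own test (-0.80 ± 0.29, adjusted p = 0.194). Dex on top of LPS gave 13.1, 16.1 and 6.86 FPKM in wild-type cells and 16.1, 16.3 and 11.7 FPKM in AMPKa1-/- cells, with no call in either genotype, although the AMPKa1-/- difference was called without LPS + Dex replicate 3 (0.61), after centring (adjusted p = 0.0313) or quantile normalization (adjusted p = 0.0366) and with only that genotype in the fit (adjusted p = 0.0126). With DAMPs it was at 17.5, 20.4 and 10.95 FPKM in wild-type and 15.8, 21.6 and 17.0 FPKM in AMPKa1-/- cells, and with DAMPs + Dex at 12.3, 8.36 and 11.6 FPKM and at 13.1, 13.7 and 13.3 FPKM. The last groups were below vehicle in both genotypes (log2 fold change -0.77 ± 0.21, adjusted p = 0.00587, a call lost without wild-type DAMPs + Dex replicate 2 (-0.61), and -0.86 ± 0.21, adjusted p = 0.002), but not called against DAMPs (-0.53, adjusted p = 0.0621, and -0.40, adjusted p = 0.167). That difference was called in wild-type cells without DAMPs replicate 3 (-0.77) and after centring or quantile normalization (adjusted p = 0.0228 and 0.0211), and in AMPKa1-/- cells after quantile normalization (adjusted p = 0.0466) and with only that genotype in the fit (adjusted p = 0.0403).

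Tgm2 (chr2:158116402-158146436, minus strand, ENSMUSG00000037820) fell into tiers that did not overlap. It was at 10.8, 12.5 and 10.9 FPKM in wild-type vehicle libraries, at 1.57, 1.77 and 1.77 FPKM with Dex and at 29.8 and 32.4 FPKM with LPS. Dex was thus 6.67-fold below vehicle (log2 fold change -2.19 ± 0.15, adjusted p = 8.18e-12) and LPS 2.74-fold above (1.38 ± 0.17, adjusted p = 6.85e-08). AMPKa1-/- libraries held 11.6, 13.4 and 14.4 FPKM with vehicle, 1.5, 1.87 and 1.60 FPKM with Dex (7.90-fold lower, -2.41 ± 0.15, adjusted p = 1.26e-12) and 32.1, 28.7 and 43.6 FPKM with LPS (2.65-fold higher, 1.33 ± 0.15, adjusted p = 1.32e-08).

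The Dex difference of Tgm2 was small once LPS was present. LPS + Dex gave 20.4, 22.3 and 21.3 FPKM in wild-type cells, 1.46-fold below LPS (log2 fold change -0.52 ± 0.17, adjusted p = 0.0165), and 31.2, 24.4 and 28.6 FPKM in AMPKa1-/- cells, where the groups overlapped and no call was made (-0.29 ± 0.15, adjusted p = 0.141). The wild-type call was lost after centring (-0.45), after quantile normalization (-0.42) and without LPS replicate 2 (-0.58) or 3 (-0.46), and with only the groups compared (adjusted p = 0.0554). With DAMPs, by contrast, Dex took Tgm2 from 8.91, 14.4 and 9.91 FPKM to 1.5, 1.23 and 1.41 FPKM in wild-type cells (8.02-fold lower, log2 fold change -2.32 ± 0.15, adjusted p = 2.11e-12). AMPKa1-/- libraries went from 12.9, 14.3 and 15.0 FPKM to 1.10, 2.04 and 1.65 FPKM (8.81-fold lower, -2.55 ± 0.15, adjusted p = 3.22e-13).

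Selenop (chr15:3268547-3280508, plus strand, ENSMUSG00000064373) was by far the most abundant of the 8 and moved over a wide range. Of its 3 windows, all within the gene's span, the one furthest downstream is shown because it holds the TATA box letters TATAAA, in capitals here, which are found in 13.6% of all windows on either strand.
Selenop, chr15:3270727-3271026, plus strand: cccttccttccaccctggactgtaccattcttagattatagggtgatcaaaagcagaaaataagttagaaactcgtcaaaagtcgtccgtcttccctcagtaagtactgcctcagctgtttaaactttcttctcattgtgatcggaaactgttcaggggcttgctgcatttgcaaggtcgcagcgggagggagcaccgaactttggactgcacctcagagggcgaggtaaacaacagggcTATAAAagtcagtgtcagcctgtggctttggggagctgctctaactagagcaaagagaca

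Wild-type vehicle libraries held Selenop at 3695, 3943 and 3141 FPKM and Dex libraries at 7665, 7548 and 8102 FPKM, 2.16-fold higher with no overlap (log2 fold change 1.12 ± 0.17, adjusted p = 8.36e-06). Ranked by FPKM within the library, it stood at places 13, 11 and 17 of all genes with vehicle and at place 5 in all 3 Dex libraries. With LPS it was at 92.9 and 107 FPKM, 35.9-fold below vehicle (log2 fold change -5.15 ± 0.19, adjusted p = 9.57e-19), and ranked 1280 and 1134. Dex on top of LPS gave 277, 377 and 251 FPKM, 3.02-fold above LPS (log2 fold change 1.56 ± 0.19, adjusted p = 1.18e-07) and still 11.9-fold below vehicle.

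AMPKa1-/- libraries held Selenop at 2807, 2760.4 and 2550.0 FPKM with vehicle and 7203, 7016 and 7744 FPKM with Dex (2.71-fold higher, log2 fold change 1.44 ± 0.17, adjusted p = 1.64e-07). LPS left 99.0, 107 and 71.9 FPKM (29.2-fold lower, -4.87 ± 0.17, adjusted p = 1.75e-19), and LPS + Dex 389, 358 and 271 FPKM (3.67-fold above LPS, 1.87 ± 0.17, adjusted p = 4.23e-10). In the order of group means, the 4 groups with Dex and no LPS, the 4 vehicle and DAMPs groups, the LPS + Dex groups and the LPS groups formed tiers that did not overlap each other.

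**Figure D3:**
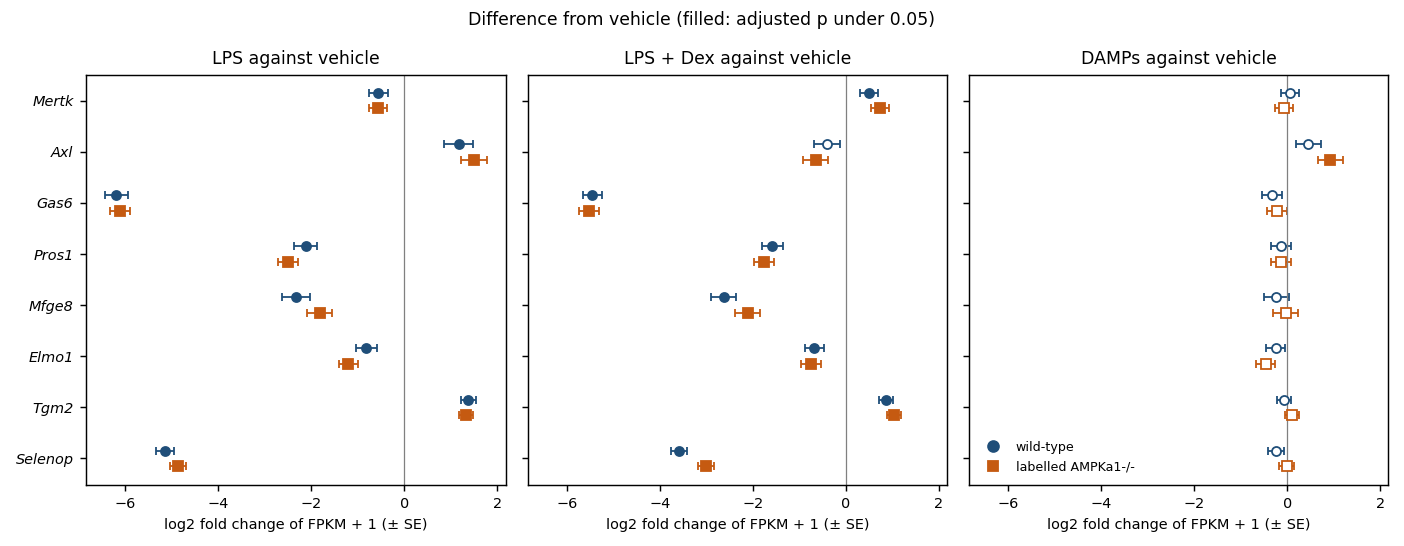
Log2 fold change of FPKM + 1 against vehicle for LPS, LPS + Dex and DAMPs (panels), with circles for wild-type and squares for AMPKa1-/- cells, bars of ± 1 SE, and filled symbols where the adjusted p is under 0.05. Gas6 and Selenop lie furthest below 0 with LPS, Axl and Tgm2 lie above 0, and the DAMPs symbols cluster near 0 with Axl of AMPKa1-/- cells the filled exception.

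Set out by comparison, Dex on top of LPS gave 5 of 8 calls in each genotype. In wild-type cells 3 were higher (Mertk, Gas6, Selenop) and 2 lower (Axl, Tgm2) against a background of 34.1%, and in AMPKa1-/- cells 4 were higher (Mertk, Gas6, Pros1, Selenop) and 1 lower (Axl) against 37.7%. Dex on top of DAMPs gave 5 of 8 calls in each genotype, Mertk and Selenop higher and Axl, Gas6 and Tgm2 lower, against 24.3% and 25.3%. LPS + Dex against vehicle gave 7 of 8 in wild-type (background 54.2%) and 8 of 8 in AMPKa1-/- cells (background 57.4%), with Mertk and Tgm2 higher and the remainder of the called genes lower. Here the wild-type call of Mertk (log2 fold change 0.50, adjusted p = 0.0288, groups overlapping) was lost without vehicle replicate 2 (0.40) or LPS + Dex replicate 1 (0.32) or 2 (0.47), and that of Elmo1 (-0.68, adjusted p = 0.00669) without LPS + Dex replicate 3 (-0.35). Both were lost with only the groups compared (adjusted p = 0.084 and 0.085), and that of Mertk with no filter (adjusted p = 0.063). The AMPKa1-/- call of Axl (-0.64, adjusted p = 0.0444) was lost with no filter, after centring (-0.36) or quantile normalization (-0.43) and on leaving out vehicle replicate 1, 2 or 3 or LPS + Dex replicate 1 (-0.68 to -0.47). In wild-type cells Axl was called without LPS + Dex replicate 1 (-0.75). DAMPs + Dex against vehicle gave 6 of 8 (background 24.9%) and 7 of 8 (background 26.1%). Pros1 was the gene that differed between these counts (wild type -0.57, adjusted p = 0.0586), and it was called in wild-type cells after centring or quantile normalization, with only the groups compared and without DAMPs + Dex replicate 3. Its AMPKa1-/- call was lost with no filter and without vehicle replicate 1 or 2 or DAMPs + Dex replicate 2 or 3. The comparisons with vehicle share the vehicle libraries and those with LPS share the LPS libraries, so their values are not independent of each other.

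The dependence of the Dex difference on LPS was tested directly as an interaction. In wild-type cells 4 of the 8 genes were called (Mertk, Gas6, Pros1, Tgm2; background 32%) and in AMPKa1-/- cells 5 of 8 (the same 4 and Elmo1; background 28.4%). For Mertk the Dex difference was smaller with LPS than without (-1.34 on the log2 scale, adjusted p = 0.000644, in wild-type cells and -0.78, adjusted p = 0.03, in AMPKa1-/- cells). For Gas6 it turned from lower to higher (1.46, adjusted p = 0.000903, and 1.21, adjusted p = 0.00296). Pros1 gave 1.13 (adjusted p = 0.00989) and 1.38 (adjusted p = 0.00109), Tgm2 gave 1.67 (adjusted p = 1.96e-06) and 2.12 (adjusted p = 1.27e-08), and Elmo1 in AMPKa1-/- cells gave 1.45 (adjusted p = 0.00033). The Mertk call in AMPKa1-/- cells was lost with no filter and on leaving out vehicle replicate 1 or 2, Dex replicate 3, LPS replicate 2 or LPS + Dex replicate 1 (-0.73 to -0.64), and the Pros1 call in wild-type cells on leaving out LPS replicate 3 (0.95). The same test with DAMPs in place of LPS called 0 of the 8 genes by limma, and 1 and 35 of all genes in wild-type and AMPKa1-/- cells (0.00881% and 0.308%, with 1124 and 1167 at an unadjusted p under 0.05, and 0 to 39 and 0 to 49 called on leaving out 1 library).

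**Figure D4:**
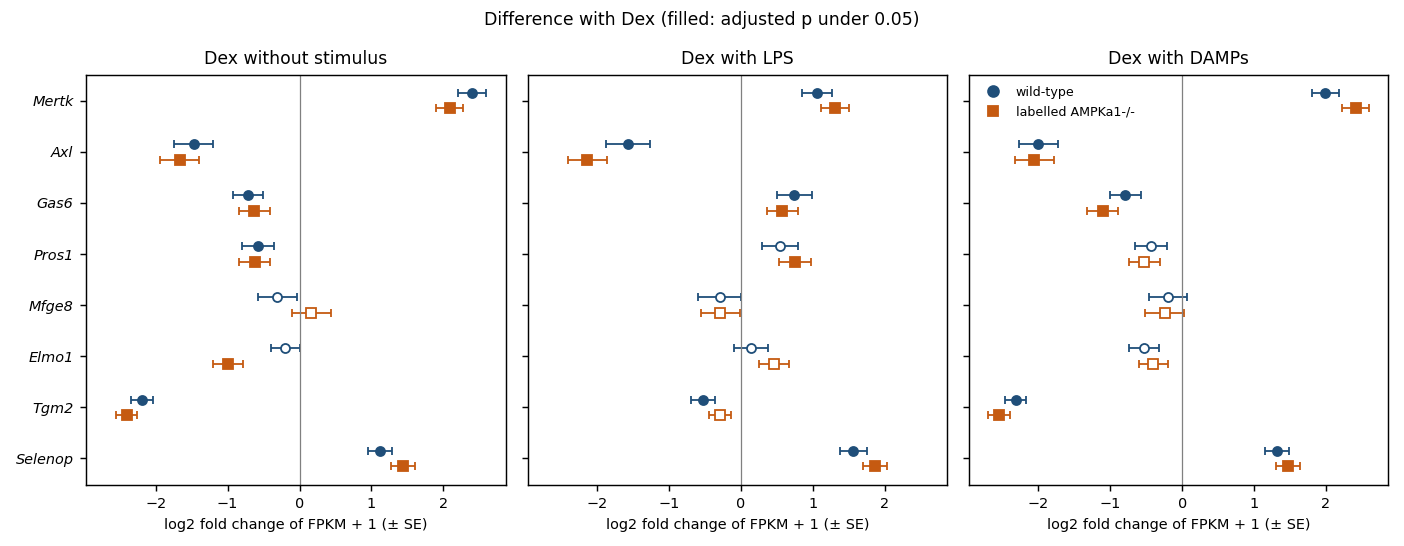
Log2 fold change of FPKM + 1 with Dex in cells without a stimulus, with LPS and with DAMPs (panels), with circles for wild-type and squares for AMPKa1-/- cells, bars of ± 1 SE, and filled symbols where the adjusted p is under 0.05. Mertk and Selenop lie above 0 and Axl below 0 in all 3 panels, while Gas6 is below 0 without LPS and above 0 with LPS, and Tgm2 moves from below -2 to near 0 with LPS.

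Genotype made little difference that the test could show. With Dex alone, Mertk was lower in AMPKa1-/- than in wild-type libraries, at 128, 109 and 157 against 212, 221 and 178 FPKM, with no overlap (1.55-fold lower, log2 fold change -0.64 ± 0.19, adjusted p = 0.0197). It was the only call among the 8 genes for genotype within a treatment. With only the groups compared, Axl (-0.56, adjusted p = 0.0394) and Elmo1 (-0.40, adjusted p = 0.0432) were called lower with Dex too. In this treatment 26.5% of all genes were called, a share that dropped to 2.71% without AMPKa1-/- Dex replicate 2, to 2.68% without wild-type Dex replicate 2 and to 14.7% without wild-type Dex replicate 1, and the Mertk call was lost on leaving out any of these 3 libraries (-0.52, -0.58 and -0.61). With vehicle, LPS, LPS + Dex, DAMPs and DAMPs + Dex, 0 of the 8 were called by limma, where 49, 87, 76, 83 and 120 of all genes were (0.432%, 0.766%, 0.669%, 0.731% and 1.06%, with 700, 1300, 921, 860 and 1067 genes at an unadjusted p under 0.05). Leaving out 1 library gave 28 to 58, 9 to 130, 36 to 110, 25 to 55 and 49 to 97 genes. The test of whether a treatment difference itself differed between genotypes called 0 genes of all in each of 5 comparisons (Dex, LPS and DAMPs against vehicle, and Dex on LPS and on DAMPs, with 2441, 514, 66, 311 and 234 genes at an unadjusted p under 0.05). For Mertk with Dex this difference was -0.31 ± 0.27 (adjusted p = 0.463), and for Axl with Dex on LPS -0.57 ± 0.41 (adjusted p = 1).

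The wider pathway was read from 9 lists of 85 genes that leave out the 8 described above, of which 84 were found by symbol and 76 were tested. The background for every list below is the share of all genes called. It was 55.7% in wild-type and 64.3% in AMPKa1-/- cells with LPS, and 30.9% and 27.9% with Dex alone. With Dex on LPS it was 34.1% and 37.7%, and with DAMPs 2.01% and 4.13%. No list was tested as a set. With LPS, 21 of the 76 were higher and 34 lower in wild-type cells and 21 and 37 in AMPKa1-/- cells. Of all genes, 2258 were higher and 4068 lower in wild-type and 2295 and 5004 in AMPKa1-/- cells, so lower calls led there too. With Dex alone 12 were higher and 20 lower in wild-type and 10 and 27 in AMPKa1-/- cells. With Dex on LPS 14 were higher and 17 lower in both. DAMPs alone gave 3 higher and 1 lower, and 4 and 4. The median log2 fold change over the 76 genes was -0.38 and -0.43 with LPS, beside -0.19 and -0.30 for all genes, and 0.01 and 0.00 with Dex on LPS, beside -0.03 and 0.01. Tyro3, Timd4, Havcr1, Adgrb1, Ager, Elmo3, Gulp1 and Siglecg were under a mean of 1 FPKM and not tested.

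Among the 5 tested phosphatidylserine receptors and their inhibitory relatives, 1 was higher and 3 lower with LPS in both genotypes (median log2 fold change -1.54 and -1.86, background 55.7% and 64.3%). With Dex on LPS, 2 were higher and 0 lower in wild-type and 1 and 0 in AMPKa1-/- cells (median 0.15 and 0.37). Cd300lf, a receptor that binds phosphatidylserine, was at 3.93 and 8.29 FPKM in wild-type LPS and at 18.0, 23.5 and 12.1 FPKM in LPS + Dex libraries, with no overlap (log2 fold change 1.43 in wild-type and 2.04 in AMPKa1-/- cells). Of the 8 tested bridging and eat-me proteins other than Gas6, Pros1 and Mfge8, 1 was higher and 6 lower with LPS in wild-type and 2 and 5 in AMPKa1-/- cells (median -1.37 in both, background 55.7% and 64.3%). Dex on LPS changed 1 of these, upward, in wild-type cells and 0 in AMPKa1-/- cells.

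Of the 9 tested integrins and scavenger receptors, 3 were higher and 5 lower with LPS in both genotypes (median log2 fold change -2.07 and -1.86, background 55.7% and 64.3%). With Dex on LPS, 3 were higher and 4 lower in both (median -0.39 and -0.23, background 34.1% and 37.7%). Cd36, a scavenger receptor for oxidized lipids, went from 88.0 and 89.3 FPKM in wild-type LPS libraries to 12.6, 11.4 and 7.92 FPKM in LPS + Dex (log2 fold change -2.97, and -2.57 in AMPKa1-/- cells). The scavenger receptor Msr1 went from 448 and 309 FPKM to 90.5, 94.5 and 57.3 FPKM (-2.22 and -2.02). Itgav, the αv integrin chain that recognises Mfge8, was lower as well (-1.30 and -1.26). The LPS and LPS + Dex groups of Cd36 and Msr1 were far apart.

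The engulfment list had 10 tested genes, of which 2 were higher and 5 lower with LPS in wild-type and 2 and 6 in AMPKa1-/- cells (background 55.7% and 64.3%). With Dex on LPS, 2 and 3 were higher and 0 lower (median log2 fold change 0.26 and 0.11). Elmo2, the paralogue of Elmo1, rose from 17.4 and 14.9 FPKM to 57.7, 58.4 and 32.5 FPKM in wild-type cells (log2 fold change 1.52, and 1.46 in AMPKa1-/- cells), and Dock1, the partner of Elmo proteins, rose too (0.89 and 0.91). Of 3 do-not-eat-me genes, 0 were called for Dex on LPS in either genotype. The 5 find-me receptors held 1 call, downward, in each genotype, P2ry6, a receptor for UDP released by dying cells, at 78.1 and 83.8 FPKM with LPS and 27.4, 40.4 and 30.5 FPKM with LPS + Dex (-1.30 and -1.46).

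In the list of digestion and lipid handling after uptake, 8 of the 12 tested genes were lower and 1 higher with LPS in each genotype (background 55.7% and 64.3%). With Dex on LPS, 2 were higher and 4 lower in wild-type and 2 and 3 in AMPKa1-/- cells. The cholesterol transporter Abcg1 went from 60.1 and 84.3 FPKM to 28.0, 13.6 and 20.4 FPKM (log2 fold change -1.79 and -2.06), its relative Abca1 was lower too (-1.75 and -1.88), and Ucp2, a mitochondrial carrier, rose from 238 and 267 FPKM to 612, 858 and 621 FPKM (1.45 and 1.37). The list of TAM signalling and shedding had 9 tested genes, with 1 higher and 5 lower with Dex on LPS in wild-type and 2 and 4 in AMPKa1-/- cells (median log2 fold change -0.48 and -0.31). Socs1, a suppressor of cytokine signalling that TAM receptors are known to induce, went from 136 and 147 FPKM with LPS to 22.1, 13.2 and 33.3 FPKM with LPS + Dex (-2.67 and -3.93), beside 0.178, 0.195 and 0.205 FPKM in vehicle libraries. Socs3, of the same family, was lower too (-1.40 and -1.56). Of the TAM receptors, Mertk thus stood higher and Axl lower in LPS + Dex than in LPS libraries, and Socs1 and Socs3 were lower. A link between these differences was not tested.

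Of the 15 tested genes of selenium handling, 6 were higher and 3 lower with LPS in both genotypes, close to the background of 55.7% and 64.3%. With Dex on LPS, 3 were higher and 3 lower in wild-type and 3 and 5 in AMPKa1-/- cells. Gpx1, a glutathione peroxidase that contains selenium, rose from 314 and 356 FPKM to 1028, 1442 and 1210.5 FPKM (log2 fold change 1.86 and 1.68), and Gpx4 rose (0.95 and 1.15). Selenow, a small selenoprotein, fell from 473 and 651 FPKM to 211, 296 and 289 FPKM (-1.08 and -1.0).

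**Figure D5:**
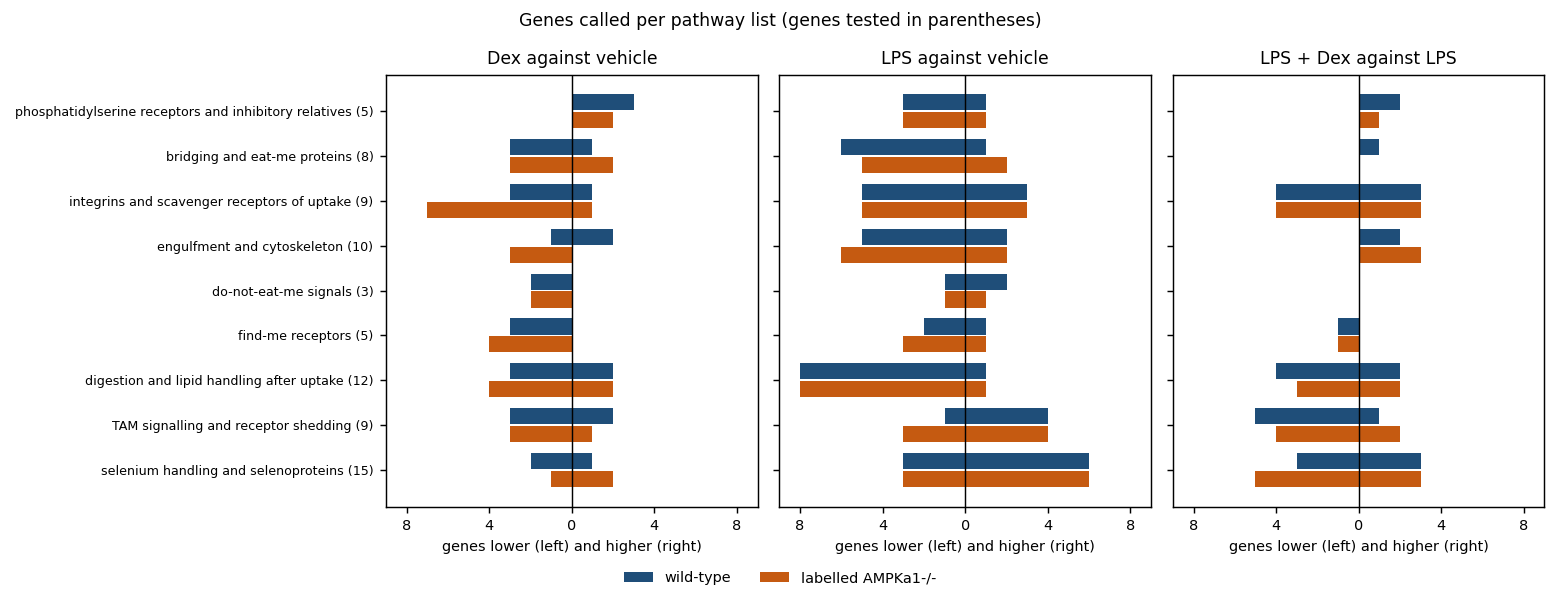
Number of genes of each pathway list called lower (left of 0) and higher (right of 0) at an adjusted p under 0.05, for Dex against vehicle, LPS against vehicle and LPS + Dex against LPS (panels), with blue bars for wild-type and orange bars for AMPKa1-/- cells and the number of genes tested in parentheses. Lipid handling shows 8 genes lower with LPS in both genotypes. The engulfment, phosphatidylserine receptor, bridging and do-not-eat-me lists have no gene called lower with Dex on LPS.

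As a description over the 12 group means of log2(FPKM + 1), which share libraries' depth and scaling, the genes most like Mertk were Wdr3 (Pearson r = 0.991), Tigd2 (0.990) and Sh3kbp1 (0.990). Axl was most like Gbp9 (0.977), Samd9l (0.973) and Rtp4 (0.965), which are known as interferon-inducible genes. Gas6 was most like Hhex, Zfyve28 and Csad (0.995 each), Pros1 like Tom1l1, Klc4 and Cc2d1b, Mfge8 like Cdkn1c, Lgmn and Cd48, and Elmo1 like Hs6st1 (0.952), Slc37a3 and Tedc1. Tgm2 was most like Ggta1, Tnip3 and Gas7, and Selenop like Hs1bp3 (0.996), Rxra and Tmub2. Among the 8 themselves, Gas6 and Pros1 (0.97) and Gas6 and Mfge8 (0.97) ran together, Mertk and Axl (-0.91) and Mertk and Tgm2 (-0.91) ran against each other, and Elmo1 and Tgm2 stood at -0.01.

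Promoter windows matched 7 of the 8 genes, 10 windows in all, and Tgm2 is named only. The GC box letters were in those of Mertk, Axl, Gas6 and Pros1, and GC made up 66% of the Mertk, 60.3% of the Axl, 58.3% of the Gas6, 66.7% of the Pros1, 64.3% of the Mfge8, 60% and 46% of the Elmo1 and 40.7%, 41.3% and 48.3% of the Selenop windows, beside a median of 52.7% over all windows. The ISRE letters, GAAA, any 2 bases and GAAA, present in 3.44% of windows, occurred once in the Selenop locus, within an overlapping pair of windows further upstream, and the TATA letters once in an Elmo1 window. The letters AGAACA (19.0%), the full palindrome of AGAACA, any 3 bases and TGTTCT (0.00913%), which contains the former, the NF-kB letters of GGGA, any base and TTTCC (0.411%), the AP-1 letters TGANTCA (7.81%), the CRE letters TGACGTCA (1.79%) and AGGTCA repeated after any 4 bases (0.0152%) were in none of the 10 windows, searched on both strands, which says only that these letters are not in these stretches.

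Markers of other cell types were read beside these results. Neutrophil markers, of which 3 of 6 had a mean of at least 1 FPKM and Camp was the most abundant at 22.2 FPKM, summed to 9.95, 0.527 and 1.64 FPKM in wild-type vehicle, 133 and 113 FPKM in LPS and 34.9, 32.9 and 52.2 FPKM in LPS + Dex libraries. Among the dendritic cell markers 1 of 5, Ccr7, had a mean of at least 1 FPKM and 1 was at 0 in all libraries, with sums of 0.666, 0.532 and 0.336 FPKM in wild-type vehicle and 38.6 and 112 FPKM in LPS and 1.10, 0.773 and 1.58 FPKM in LPS + Dex libraries. The 4 endothelial markers held 1 such gene, Kdr, with sums of 1.28, 2.71 and 1.60 FPKM in wild-type vehicle and 45.2 and 53.1 FPKM in LPS and 0.602, 0.159 and 0.491 FPKM in LPS + Dex libraries. In both genotypes these 3 sums were higher in every LPS library than in any vehicle or LPS + Dex library. Osteoclast markers (2 of 4, Acp5 most abundant at 156 FPKM) summed to 25.4, 19.5 and 26.9 FPKM in wild-type vehicle, 203 and 192 FPKM in LPS and 619, 691 and 746 FPKM in LPS + Dex libraries. B cell, T and NK cell, mast cell and basophil, and erythroid lists had 0 markers at a mean of 1 FPKM. With Dex alone the osteoclast sum was 92.5, 64.1 and 65.6 FPKM in wild-type cells. The AMPKa1-/- libraries held 66.4, 118 and 59.9 FPKM with Dex against 16.2, 15.2 and 12.1 FPKM with vehicle. With DAMPs alone it was 46.2, 30.1 and 46.2 FPKM in wild-type and 31.4, 37.2 and 31.9 FPKM in AMPKa1-/- cells. The osteoclast sum was thus higher without overlap in both genotypes with LPS, DAMPs and Dex alone, and with Dex added to LPS or to DAMPs. The endothelial sum also rose without overlap with DAMPs, to between 3.06 and 5.50 FPKM in wild-type and between 2.53 and 5.29 FPKM in AMPKa1-/- cells.

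The macrophage sum was lower with LPS than with LPS + Dex in both genotypes. It was 20918, 26775 and 21021 FPKM in wild-type vehicle, 17207 and 13951 FPKM in LPS and 27873, 28112 and 31827 FPKM in LPS + Dex libraries. In AMPKa1-/- cells the LPS libraries, at 22867, 21280 and 12928 FPKM, overlapped vehicle and lay below the LPS + Dex libraries, at 39109.8, 34074 and 27074 FPKM. Csf1r, the receptor for the macrophage growth factor CSF-1, was at 543, 675 and 514 FPKM in wild-type vehicle, 260.1 and 197 FPKM in LPS and 399, 439 and 376 FPKM in LPS + Dex libraries. Adgre1, of the same list, went the other way with LPS. It was at 989, 1180 and 849 FPKM in wild-type vehicle and 2171 and 1636 FPKM in LPS libraries. In AMPKa1-/- cells Adgre1 was at 706, 959 and 626 FPKM with vehicle and 1900, 2213 and 1719 FPKM with LPS. The sum thus did not stand for each of its markers. It was mostly Lyz2, which had a mean of 24097 FPKM beside a median sum of 27873 FPKM over all libraries.

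Marker sums also separated the genotypes. In the Dex libraries, where Mertk was called, the macrophage sum was 22546, 19026 and 22578 FPKM in wild-type and 35189, 36236 and 29305 FPKM in AMPKa1-/- cells. This sum is mostly Lyz2, and the markers in it did not all go this way. Adgre1 was at 861, 669 and 688 FPKM in wild-type and lower, at 474, 612 and 623 FPKM, in AMPKa1-/- cells. Csf1r was at 488, 556 and 576 FPKM in wild-type and higher, at 601, 620 and 662 FPKM, in AMPKa1-/- cells. Fibroblast and stromal markers summed to 12.3, 15.4 and 25.0 FPKM against 4.14, 4.69 and 3.17 FPKM. Neutrophil markers summed to 1.44, 0.726 and 0.914 FPKM against 12.3, 8.13 and 5.96 FPKM. None of these 3 sums overlapped between the genotypes with Dex. The part of these marker sums in the results for the 8 genes was not tested.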

How the data were processed

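Total RNA of 35 BMDM libraries was sequenced by Novogene. The authors deposited 1 table of FPKM per library, and the submitters' processing notes name GRCm38/mm10, Bowtie2 2.2.3, TopHat2 2.0.12, HTSeq 0.6.1 and DESeq2, with no role or order. Libraries were grouped by the genotype and treatment labels. Symbols and positions came from GENCODE M21 (46488 of 47069 identifiers matched). Fragment totals estimated from the FPKM steps were 15837203 to 31955298 per library, so that a single fragment on 1 kb corresponded to between 0.0313 and 0.0631 FPKM, which limits the precision of low values.

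Log2(FPKM + 1) of the 11354 genes with a mean of at least 1 FPKM was fitted in limma 3.58.1 (R 4.3.3) with a trended prior and 12 groups in one model. Tests were 2-sided, with Benjamini-Hochberg adjustment at 0.05 over all genes in each of 29 comparisons. The steps were tested on simulated data. Each result was recomputed with other pseudocounts (0.1) and filters (none, or a mean of at least 5 FPKM), after centring or quantile normalization, on smaller sets of groups, with a replicate block and without each library in turn.

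The 8 genes and the lists were chosen with earlier results of these data known. From each list the text names up to 3 genes called for LPS + Dex against LPS in both genotypes with the largest mean change (1 such gene is not reported here), and for each of the 8 genes the 3 most like it. Marker lists are named by their most abundant gene. Tables were drawn up in Python 3.11.15 with pandas 2.3.3 and numpy 2.4.6, and figures in matplotlib 3.10.9.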

Additional observations from a re-analysis of the deposited data

Results flagged for a closer look

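The Dex difference depended on the presence of LPS for 9 pairs of gene and genotype, by the interaction test over all genes in limma. Of all genes tested, 32% were called by the same test in wild-type and 28.4% in AMPKa1-/- cells. On the log2 scale, the Dex difference with LPS minus that without was -1.34 for Mertk in wild-type and -0.78 in AMPKa1-/- cells, 1.46 and 1.21 for Gas6, 1.13 and 1.38 for Pros1, and 1.67 and 2.12 for Tgm2. For Elmo1 it was 1.45 in AMPKa1-/- cells. These contrasts share their vehicle and LPS libraries with the comparisons above, and wild-type LPS rests on 2 libraries. The call for Mertk in AMPKa1-/- cells was lost with no filter (adjusted p = 0.0624) and without any of 5 libraries (vehicle replicate 1 or 2, Dex replicate 3, LPS replicate 2 or LPS + Dex replicate 1, with values of -0.73 to -0.64). The call for Pros1 in wild-type cells was lost on leaving out LPS replicate 3 (0.95). The groups of 2 or 3 libraries were too small for a check of single outlying libraries.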

How the results depend on the processing

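Over 29 comparisons of the 8 genes, 88 of 232 results were called, and no called result reversed under any alternative run. Under the settings other than leaving out a library, 763 called values kept their call and 27 lost it, and 16 values gained one. Losses were more frequent on leaving out 1 library, where 505 called values kept their call, 60 lost it and 6 values gained one. Fold changes of Mertk, Axl, Tgm2 and Selenop with Dex alone, and of Axl, Gas6, Pros1, Mfge8, Tgm2 and Selenop with LPS, kept their calls under all settings and without any single library. The number of the 8 genes called for DAMPs against vehicle in AMPKa1-/- cells went from 1 to 0 with a pseudocount of 0.1, with no filter, with a mean of at least 5 FPKM and with only the groups compared, where the wild-type LPS + Dex against LPS count went from 5 to 3 and the genotype count with Dex from 1 to 3. Centring or quantile normalization moved the split of all called genes for LPS against vehicle from 2258 higher and 4068 lower to 2886 and 3351 (centred) in wild-type and from 2295 and 5004 to 3361 and 3504 in AMPKa1-/- cells, for LPS + Dex against vehicle from 1952 and 4205 to 2890 and 2850, and from 1892 and 4628 to 3060 and 2948, for genotype with Dex from 1245 and 1763 to 1976 and 1365, for Dex against vehicle in AMPKa1-/- cells from 1356 and 1812 to 1900 and 1688 (quantile), and for the wild-type dependence of Dex on LPS from 1688 and 1940 to 2179 and 1661. The causes were not tested.

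Of all genes, wild-type calls for DAMPs against vehicle fell from 228 to 94 with 1 genotype in the fit and to 1 with only the groups compared (26 to 372 on leaving out single libraries, and 267 to 453 in place of 469 in AMPKa1-/- cells), and those for LPS + Dex against LPS from 3871 to 2065 with only the groups compared. Genotype calls went from 49 to between 19 and 92 with vehicle, 87 to between 3 and 450 with LPS, 76 to between 7 and 146 with LPS + Dex, 83 to between 11 and 107 with DAMPs, and 120 to between 35 and 155 with DAMPs + Dex, and genotype differences of a treatment response from 0 to at most 118, with no filter. The dependence of Dex on DAMPs went from 1 to between 0 and 11 in wild-type and from 35 to between 7 and 112 in AMPKa1-/- cells, and to 0 to 39 and 0 to 49 on leaving out 1 library.

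On leaving out 1 library, the number of the 8 genes called ranged in wild-type and AMPKa1-/- cells from 4 to 5 and 5 to 6 for Dex, 7 to 8 and 7 to 8 for LPS, 0 to 0 and 0 to 1 for DAMPs, 3 to 6 and 3 to 6 for Dex on LPS, 4 to 6 and 5 to 5 for Dex on DAMPs, 6 to 7 and 7 to 8 for LPS + Dex against vehicle, 5 to 7 and 6 to 7 for DAMPs + Dex against vehicle, and 3 to 4 and 4 to 5 for the dependence of Dex on LPS. It ranged from 0 to 1 for genotype with Dex and was 0 in every other genotype comparison and for the dependence of Dex on DAMPs. Replicate numbers are shared by the groups. With the replicate number as a block, Dex against vehicle gave 3768 genes in place of 3506 in wild-type cells and LPS + Dex against LPS 4236 in place of 3871, and no call among the 8 genes changed. Same-numbered libraries deviated together in 25 of 40 wild-type and 29 of 45 AMPKa1-/- pairs (correlation over 0.1, medians 0.28 and 0.22), and differently numbered ones in 22 of 80 and 23 of 90 (medians -0.10 and -0.09). The same number thus went with a higher correlation, but not in every pair, and the numbers were not taken to pair the libraries. Scaling every library to one median moved 19 of 96 group levels by over 1 SD. At these depths a single fragment on 1 kb corresponded to up to 0.0631 FPKM, so the low values of Gas6 and Tgm2 carry more counting error than the others.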
